A study of Homo sapiens with 8 samples.

Results

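The clustered protocadherins are a family of cadherin-like adhesion proteins that are encoded side by side in the alpha, beta and gamma clusters on the long arm of chromosome 5 (5q31). Each alpha or gamma gene has its own first exon, which encodes the extracellular part and is driven by its own promoter, and this exon is spliced to constant exons at the end of the cluster, whereas a beta gene carries its coding sequence in a single exon. The proteins are best known from neurons, in which different cells express different combinations, and promoter choice depends on DNA methylation, the insulator protein CTCF and cohesin. The members were the symbols of the count table that start with PCDHA, PCDHB or PCDHG, without the 5 symbols that end as pseudogenes. These were 58 of the 54261 rows of the table. They comprised 53 protein-coding genes, the alpha pseudogene PCDHA14, the alpha constant region PCDHACT and 3 rows that carry the name of a whole cluster, PCDHA, PCDHB and PCDHG.

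Total RNA depleted of ribosomal RNA was sequenced from 5 untreated lines, with 1 library per line, and from 3 of these lines under hypoxia. The normal group (n = 2) held NCM460 and HIEC6, both labelled as normal intestinal epithelial lines. The CRC group (n = 3) held the colorectal carcinoma lines DLD1, HCT116 and HCT8. The same 3 CRC lines made up the hypoxia group (n = 3), for which the oxygen level and the duration are not given in the sources used here. According to the methods DLD1 carries mutations in p53 and APC, and HCT8 carries an APC mutation with wild-type p53. The methods give the same medium with serum for the lines they list, and HCT116 is not among these. The labels name no transgene. The replicates of a group were different lines, so that p-values measured the spread between lines.

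The 8 libraries held 45519306 to 57374239 counts, so that 3 counts, taken as the floor, were worth 0.0523 to 0.0659 CPM (counts per 1000000 counts of the library). The labels of the lines were checked against cell type markers. HIEC6 had 0.18 CPM of the epithelial adhesion gene EPCAM and 0.99 CPM of the keratin KRT19, where the other 7 libraries had at least 198 CPM and 738 CPM, and 3 counts of the intestinal factor CDX2, where the others had at least 534. The intestinal keratin KRT20 was at 0 in HIEC6 and also in NCM460 and 2 hypoxia libraries. The keratins KRT8 (4290 CPM) and KRT18 (3725 CPM) were higher in HIEC6 than the mean of the other untreated lines, by 0.76 and 0.66 on the log2 scale. The 10 epithelial markers, of which 8 were lower and 2 higher in HIEC6, summed to 8024 CPM there and to 4942 to 14415 CPM elsewhere. The 13 mesenchymal markers summed to 1460 CPM in HIEC6 and to between 18.9 and 188 CPM in the other libraries. VIM, an intermediate filament of mesenchymal cells, made up 1223 CPM of the sum in HIEC6. Against the mean of the other untreated lines 6 of the 13 were higher and 7 lower. Besides VIM (8.34 on the log2 scale), the higher ones included FN1 (3.92), PDGFRB (2.87) and COL1A1 (2.24). The lower ones included COL1A2 (-1.26) and COL6A3 (-1.49), while THY1 (-0.07) and DCN (-0.06) differed little. The NCM460 library resembled HCT116. Across the genes, log2(CPM + 1) of NCM460 correlated at 0.994 with HCT116 and at 0.924 with HIEC6, the other line of its group. Such correlations across genes serve as a description, since genes are no replicates. In bulk RNA, fewer cells with a transcript and less of it per cell cannot be told apart. The part of these differences between lines in the results below was not tested.

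The shared exons of the alpha and gamma clusters limit what a read can tell about a single gene. In GENCODE release 44 on GRCh37, the 15 protein-coding alpha genes joined a first exon of 2355 to 3027 bases to the same following exons of 2866 to 2869 bases, and the 22 gamma genes joined a first exon of 2563 to 2677 bases to the same 2177 bases. The first shared alpha exon lies at chr5:140358534-140358592 and the first shared gamma exon at chr5:140874374-140874432, both on the plus strand. The splice junctions of 3 alpha and 3 gamma messenger RNAs show the own end (lower case) and the common start (capitals), with 15 bases on each side of the junction, read from the GENCODE transcripts. They are shown because a read from the first shared exon fits every listed gene of its cluster.
PCDHA1: gatctttctggtaatCCACGACAGCCCAAC
PCDHAC1: aatgtcaatgccatgCCACGACAGCCCAAC
PCDHAC2: gtttctcaaaatgagCCACGACAGCCCAAC
PCDHGA1: gaaccattttctcagCAAGCCCCGCCCAAC
PCDHGB1: tctttgtcttcgcacCAAGCCCCGCCCAAC
PCDHGC3: gcccctcccggacagCAAGCCCCGCCCAAC
The 15 alpha genes had 15 different ends before the junction and 1 common start after it, and the 22 gamma genes had 22 different ends and 1 common start. The 16 beta genes had 2750 to 7973 exonic bases each and shared none of them with another member.

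**Figure D1:**
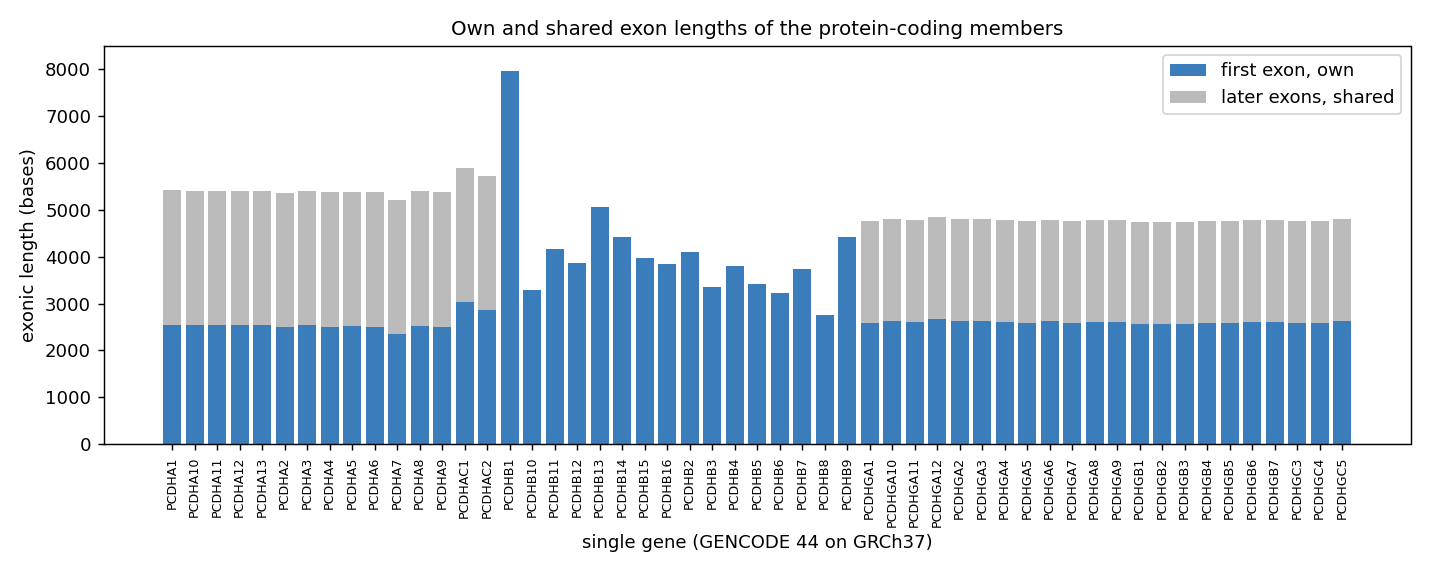
Exon length in bases (vertical axis) of the 53 protein-coding members (horizontal axis) in GENCODE 44 on GRCh37, with the own first exon in blue and the later exons shared within the cluster in grey; for beta genes the whole exonic length is own. Every alpha and gamma gene had an own exon of at least 2355 bases, and the beta genes had no shared bases.

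Counts of the family stood on the cluster rows alone. Of the 58 members, 55 were listed at 0 in all 8 libraries, among them all 53 protein-coding genes, and the 3 rows with counts were PCDHA, PCDHB and PCDHG. For comparison, 2171 of the 18283 protein-coding symbols in the table (11.9%) were at 0 in every library, as were 19534 of all 54261 rows (36.0%). The 5 pseudogene symbols were at 0 as well. The 16 beta genes, which share no exon with another member, were at 0 like the alpha and gamma genes, and so were the 5 C-type genes PCDHAC1, PCDHAC2, PCDHGC3, PCDHGC4 and PCDHGC5, the isoforms that lie next to the constant exons. In the same table the row UGT1A, named for a locus of glucuronosyltransferase genes built on the same plan of own first exons and shared later ones, had 13635 counts in HIEC6 while its 13 single rows were at 0. The immunoglobulin row IGL had 535 to 2238 counts with 7 single rows at 0. Both came from a search for rows with counts whose single rows were all at 0. They are examples and do not show how other families stand in the table.

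A value of 0 for a single protocadherin gene was not read as a silent gene. The counter and the gene annotation are not given in the sources used here, and the cause of these values was not tested. Because RefSeq lists PCDHA, PCDHB and PCDHG as entries that span the whole clusters, a count on a cluster row may come from any place in the cluster, and the table does not tell a variable exon from a constant exon, an intron or the space between genes. No level could be given for a single alpha, beta or gamma gene, and the gamma-A, gamma-B and C-type genes could not be told apart. The values below are those of the 3 cluster rows.

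PCDHA, the row of the alpha cluster, had 191 counts in HCT116, 143 in NCM460, 51 in HCT8, 17 in DLD1 and 2 in HIEC6. Under hypoxia it had 25 counts in DLD1, 36 in HCT116 and 43 in HCT8. HCT116 (3.66 CPM, 95% exact Poisson interval 3.16 to 4.21) and NCM460 (2.91 CPM, 2.45 to 3.42) were thus highest. HCT8 followed with 0.97 CPM (0.72 to 1.27) and DLD1 with 0.33 CPM (0.19 to 0.53). HIEC6 was lowest with 0.035 CPM (0.0043 to 0.13), which is under the floor of 3 counts. Poisson intervals cover counting error alone.

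PCDHB, the row of the beta cluster, had 480 counts in HCT8, 47 in HIEC6, 34 in HCT116, 24 in NCM460 and 12 in DLD1. Under hypoxia it had 16 counts in DLD1, 25 in HCT116 and 560 in HCT8. HCT8 stood apart from every other line, with 9.12 CPM untreated (8.32 to 9.97) and 12.3 CPM under hypoxia (11.3 to 13.4). The other libraries lay between 0.23 CPM (DLD1) and 0.83 CPM (HIEC6, 0.61 to 1.10).

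PCDHG, the row of the gamma cluster, had 586 counts in HCT8, 332 in HCT116, 292 in NCM460, 119 in DLD1 and 21 in HIEC6. Under hypoxia it had 92 counts in DLD1, 144 in HCT116 and 678 in HCT8. The order of the untreated lines was HCT8 (11.1 CPM, 10.2 to 12.1), HCT116 (6.35 CPM, 5.69 to 7.08), NCM460 (5.94 CPM, 5.27 to 6.66), DLD1 (2.32 CPM, 1.92 to 2.78) and HIEC6 (0.37 CPM, 0.23 to 0.57). The neighbours HCT116 and NCM460 did not differ beyond counting error, and the other neighbours in this order had intervals that did not overlap.

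**Figure D2:**
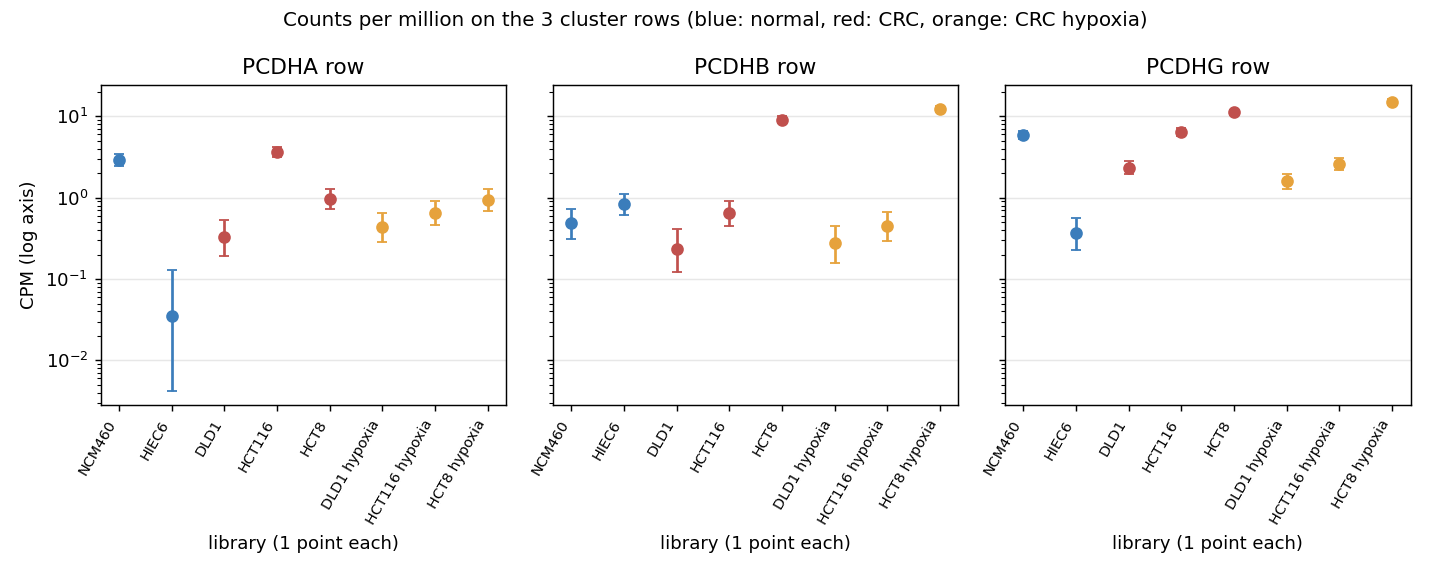
CPM on a log axis (vertical) of the PCDHA, PCDHB and PCDHG rows in the 8 libraries (horizontal), with 95% exact Poisson intervals as bars; blue points are normal lines, red points CRC lines and orange points CRC lines under hypoxia. HIEC6 lay lowest for PCDHA and PCDHG, and both HCT8 libraries lay highest for PCDHB and PCDHG.

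No cluster row was on in HIEC6 and off in the other lines. A row was called higher in HIEC6 when its CPM there was at least 4 times the highest of the other 7 libraries, with counts under 3 set to 3. The call was made over the 24265 genes that reached 10 counts in any library. It was met by 732 of them (3.02%), and 0 of the 3 cluster rows did. The opposite call, chosen after the values were seen, asked that the lowest of the other 7 libraries be at least 4 times HIEC6. It was met by 990 genes (4.08%) and by 2 of the 3 rows, PCDHA and PCDHG. The PCDHA call rested on counts near the floor, and its fold went from 6.28 to 1.88 when counts under 10 were set to 10. With 1 library of HIEC6 these calls have no replicate check.

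Against HIEC6, PCDHA was 103.7-fold higher in HCT116 (95% counting interval 28.3 to 862), 82.4-fold higher in NCM460 (22.4 to 687), 27.5-fold higher in HCT8 (7.22 to 233) and 9.41-fold higher in DLD1 (2.23 to 84.0), all resting on 2 counts in HIEC6. PCDHG was 30.1-fold higher in HCT8 (19.5 to 48.9), 17.2-fold higher in HCT116 (11 to 28.1), 16.0-fold higher in NCM460 (10.3 to 26.3) and 6.28-fold higher in DLD1 (3.92 to 10.5). For PCDHG the call itself rested on DLD1 under hypoxia, which lay 4.33-fold above HIEC6 by library totals and 3.69-fold above it after TMM scaling (trimmed mean of M-values, edgeR's correction for composition), under the fold of 4. PCDHB did not follow the other rows in HIEC6. It was lower in DLD1 than in HIEC6 (ratio 0.283, 0.137 to 0.541) and in NCM460 (0.589, 0.344 to 0.982), while the interval for HCT116 (0.785, 0.490 to 1.25) included 1.

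Both HCT8 libraries lay at least 4-fold above the highest of the other 6 for PCDHB, and this call, also chosen after the values were seen, was met by 242 of the 24265 genes (0.997%) and by 1 of the 3 rows. The smaller of the HCT8 values was 11-fold above HIEC6, the highest other library, and 8.52-fold above it after TMM scaling. Untreated HCT8 had 14.0 times the PCDHB level of HCT116 (9.89 to 20.5) and 38.9 times that of DLD1 (22.1 to 75.8). For PCDHG it had 1.75 times the level of HCT116 (1.53 to 2.01) and 4.79 times that of DLD1 (3.93 to 5.88), and for PCDHA it had 0.265 times the level of HCT116 (0.191 to 0.363).

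The balance of the clusters within a library does not depend on the library size. Per count on PCDHG, HIEC6 had 2.24 counts on PCDHB (1.31 to 3.94), both HCT8 libraries had 0.82 and 0.83 (0.72 to 0.93 untreated, 0.74 to 0.93 under hypoxia), and the other 5 libraries had 0.082 to 0.17. The intervals of HIEC6, of the HCT8 libraries and of the other libraries did not overlap. Per count on PCDHG, PCDHA had 0.58 counts in HCT116 (0.48 to 0.69) and 0.49 in NCM460 (0.40 to 0.60), against 0.14 in DLD1 (0.081 to 0.24) and 0.087 in HCT8 (0.064 to 0.12). Under hypoxia the ratio was 0.25 in HCT116 (0.17 to 0.36), 0.27 in DLD1 (0.17 to 0.43) and 0.063 in HCT8 (0.045 to 0.086). These ratios compare libraries, not the levels of the clusters with each other, since the lengths behind the rows differ.

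**Figure D3:**
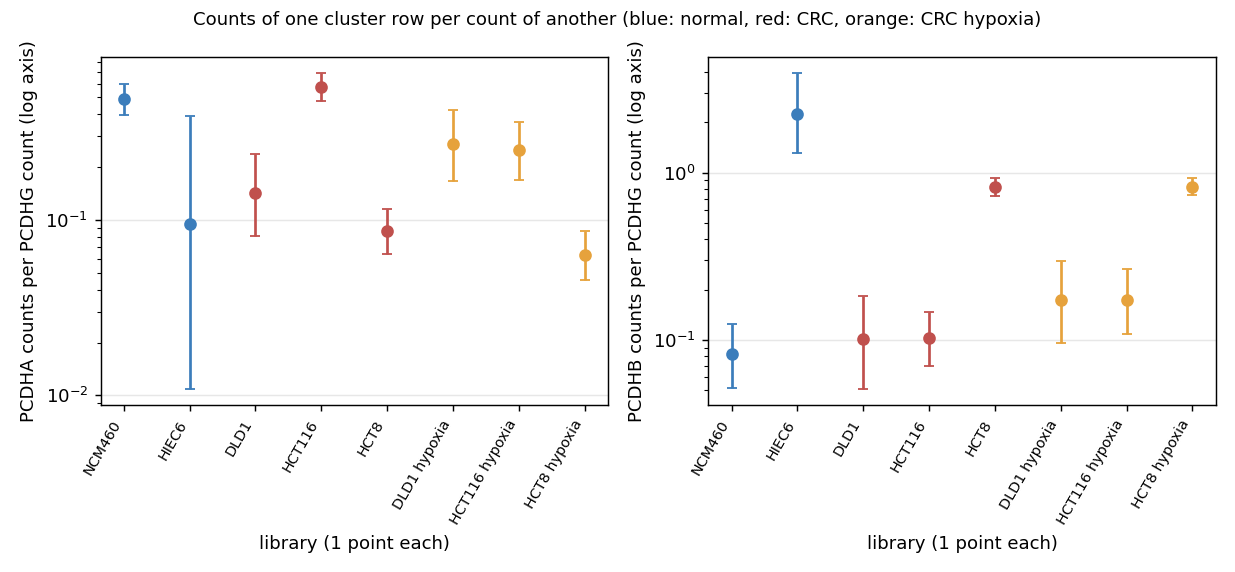
Counts on the PCDHA row (left) and the PCDHB row (right) per count on the PCDHG row, on log axes, in each of the 8 libraries, with 95% exact binomial intervals as bars; blue points are normal, red CRC and orange CRC under hypoxia. HIEC6 had the highest PCDHB share at 2.24, and HCT116 and NCM460 had the highest PCDHA shares.

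NCM460 and HCT116, lines of different groups, lay close to each other in the 3 rows. The ratio of NCM460 to HCT116 was 0.795 for PCDHA (0.636 to 0.993), 0.750 for PCDHB (0.425 to 1.30) and 0.934 for PCDHG (0.795 to 1.10), so that the interval left out 1 for PCDHA and included it for the other rows. These ratios describe 2 libraries and have no replicate check.

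Untreated CRC and normal lines were then set against each other. The mean of PCDHA was 1.65 ± 1.76 CPM over the 3 CRC lines (± SD throughout) and 1.47 ± 2.03 CPM over the 2 normal lines. In the same order PCDHB had 3.33 ± 5.01 and 0.658 ± 0.241 CPM and PCDHG had 6.60 ± 4.41 and 3.15 ± 3.94 CPM. The groups overlapped for each row. The normal group holds NCM460, which correlated at 0.994 with the CRC line HCT116 across the genes. NCM460 and HCT116 had 2.91 and 3.66 CPM of PCDHA and 5.94 and 6.35 CPM of PCDHG. The comparison therefore does not set 2 distinct normal lines against the CRC lines. All 3 rows passed the filter on low counts (10 or more in 2 or more libraries), and 0 of them, like 0 of the 19964 genes tested (0%), had an adjusted p under 0.05 by edgeR's quasi-likelihood test, while 542 genes had an unadjusted p under 0.05. DESeq2 called 143 genes and again 0 of the 3 rows. The log2 fold change was 0.10 for PCDHA (SE 1.78), 2.04 for PCDHB (SE 1.70) and 0.92 for PCDHG (SE 1.28), each with an adjusted p = 0.999 from edgeR. The PCDHB value turned to -0.71 without HCT8. The value of PCDHA turned to -1.37 without HCT116 and to -0.88 without HIEC6, and without NCM460, where HIEC6 was the lone normal line and was assumed to vary like the CRC lines, it was 5.25 (edgeR adjusted p = 0.362). PCDHG was 3.86 in that fit (edgeR adjusted p = 0.299), 0.02 without HIEC6 and 0.42 without HCT8.

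Under hypoxia the rows moved differently in the 3 lines. In HCT116 PCDHA went from 191 to 36 counts, a ratio of 0.178 (95% counting interval 0.121 to 0.255) or -2.49 on the log2 scale, and PCDHG went from 332 to 144 counts, a ratio of 0.409 (0.334 to 0.499) or -1.29. In HCT8 PCDHG went from 586 to 678 counts (ratio 1.34, 1.20 to 1.5) and PCDHB from 480 to 560 counts (ratio 1.35, 1.19 to 1.53), both in a smaller library. In DLD1 PCDHG went from 119 to 92 counts (ratio 0.690, 0.520 to 0.914). The other 4 intervals, for PCDHA in DLD1 and HCT8 and for PCDHB in DLD1 and HCT116, included 1. The HCT116 hypoxia library had the lowest TMM factor of the 8, 0.795, and after TMM scaling its log2 ratios were -2.15 for PCDHA and -0.95 for PCDHG. Each line had 1 library per condition, so that these intervals cover counting error and say nothing of the spread between cultures.

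**Figure D4:**
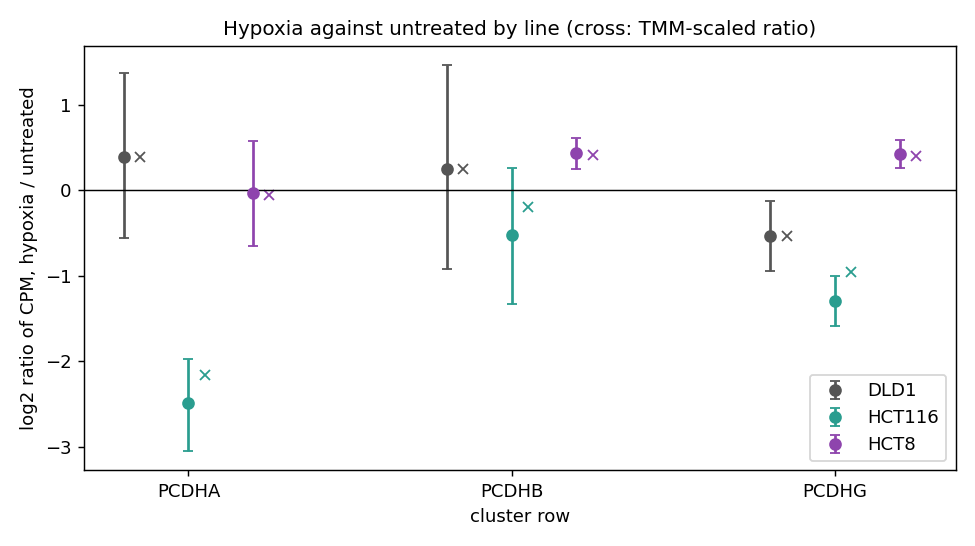
Log2 ratio of CPM between hypoxia and untreated (vertical axis) for the 3 cluster rows (horizontal axis) in DLD1, HCT116 and HCT8, with 95% exact counting intervals as bars and the TMM-scaled ratio as a cross. PCDHA and PCDHG lay lowest in HCT116 (-2.49 and -1.29), and PCDHG lay above 0 in HCT8 alone.

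Over the 3 lines, 0 of the 3 rows were called between hypoxia and untreated libraries. Without a block 0 of the 21045 genes tested passed by edgeR (0%), and 607 had an unadjusted p under 0.05. The replicate block joins the untreated and the hypoxia library of a line and called 200 genes (0.95%), 0 of them a cluster row. DESeq2 without the block called 55 genes and 0 of the rows, but gave PCDHB no adjusted p and so could not call it. With the block the log2 fold change was -0.61 for PCDHA (SE 0.63, edgeR adjusted p = 0.655), 0.20 for PCDHB (SE 0.37, edgeR adjusted p = 0.815) and -0.33 for PCDHG (SE 0.35, edgeR adjusted p = 0.667). Without the block the values were -1.20 (SE 0.98), 0.40 (SE 1.76) and -0.02 (SE 0.93), each with an adjusted p of 0.9999 from edgeR. In the CRC lines no run label occurs in both conditions, and the effects of run and treatment cannot be told apart.

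The genes around the clusters were read to set the rows in their place. TAF7, a subunit of the general transcription factor TFIID, and SLC25A2, a mitochondrial carrier of ornithine, lie between the beta and gamma clusters on the minus strand (chr5:140639452-140700351 and chr5:140682202-140683616, GRCh37). TAF7 was lowest in HCT116 (38.4 CPM) and NCM460 (47.5 CPM), followed by HIEC6 (75.1 CPM), DLD1 (99.9 CPM) and HCT8 (107 CPM). SLC25A2 lies within the span of TAF7 on the same strand, so that its counts are uncertain. It had 62 counts in HCT8, 34 in DLD1, 14 in HCT116, 11 in HIEC6 and 0 in NCM460. Of the 24 genes of 5q31 on the list, 23 were tested by edgeR in either comparison and 0 passed by edgeR or DESeq2. DESeq2 gave SLC25A2 no adjusted p for CRC against normal. The median log2 fold change of the 23 was 0.10 for CRC against normal (all genes -0.0048) and -0.09 for hypoxia without the block (all genes 0.06). HIEC6 was also set against the mean of the other untreated lines on the log2(CPM + 0.5) scale. Of the 24 genes, 19 were lower and 5 higher in HIEC6, with TAF7 (0.17) among the higher. The largest differences were -2.01 for FCHSD1, an actin and endocytosis adaptor, and -1.44 for RELL2.

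Of the 10 non-clustered protocadherins, 3 were tested by edgeR in each comparison and 0 passed by edgeR or DESeq2. DESeq2 gave PCDH7 no p for CRC against normal. PCDH7 had 145 CPM in HCT116, 144 in NCM460 and 82.8 in HIEC6, against 0.88 in DLD1 and 0.34 in HCT8. It was thus high in the 3 lines other than DLD1 and HCT8. PCDH9 had 501 counts in HIEC6 (8.83 CPM) and at most 2 in any other library. PCDH12 had 14 counts in HIEC6 and at most 3 in any other library. PCDH19 had 92 counts in NCM460 and 43 in HCT116 and 0 in HIEC6. PCDH1, expressed in epithelia, had 1789 to 5654 counts in the 8 libraries, and with the block its log2 fold change under hypoxia was 0.92 (SE 0.23, edgeR adjusted p = 0.103). Of the 8 classical and related cadherins, 5 were tested against the normal lines and 6 under hypoxia, and 0 passed by edgeR. DESeq2 called CDH17, an intestinal cadherin, higher in the CRC lines (log2 fold change 10.42, DESeq2 adjusted p = 0.000148), with 7351 counts in DLD1 and 7055 in HCT8 but 4 in HCT116. Against the mean of the other untreated lines, 4 of the 8 cadherins were lower and 2 higher in HIEC6. Among the lower, CDH1 (E-cadherin) had 3.03 CPM and CDH3 (P-cadherin) 0.39 CPM in HIEC6. The other untreated lines had at least 126 CPM of CDH1 and at least 79.2 CPM of CDH3. Among the higher, CDH13 had 55.6 CPM in HIEC6 and at most 3.30 CPM in the other untreated lines.

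**Figure D5:**
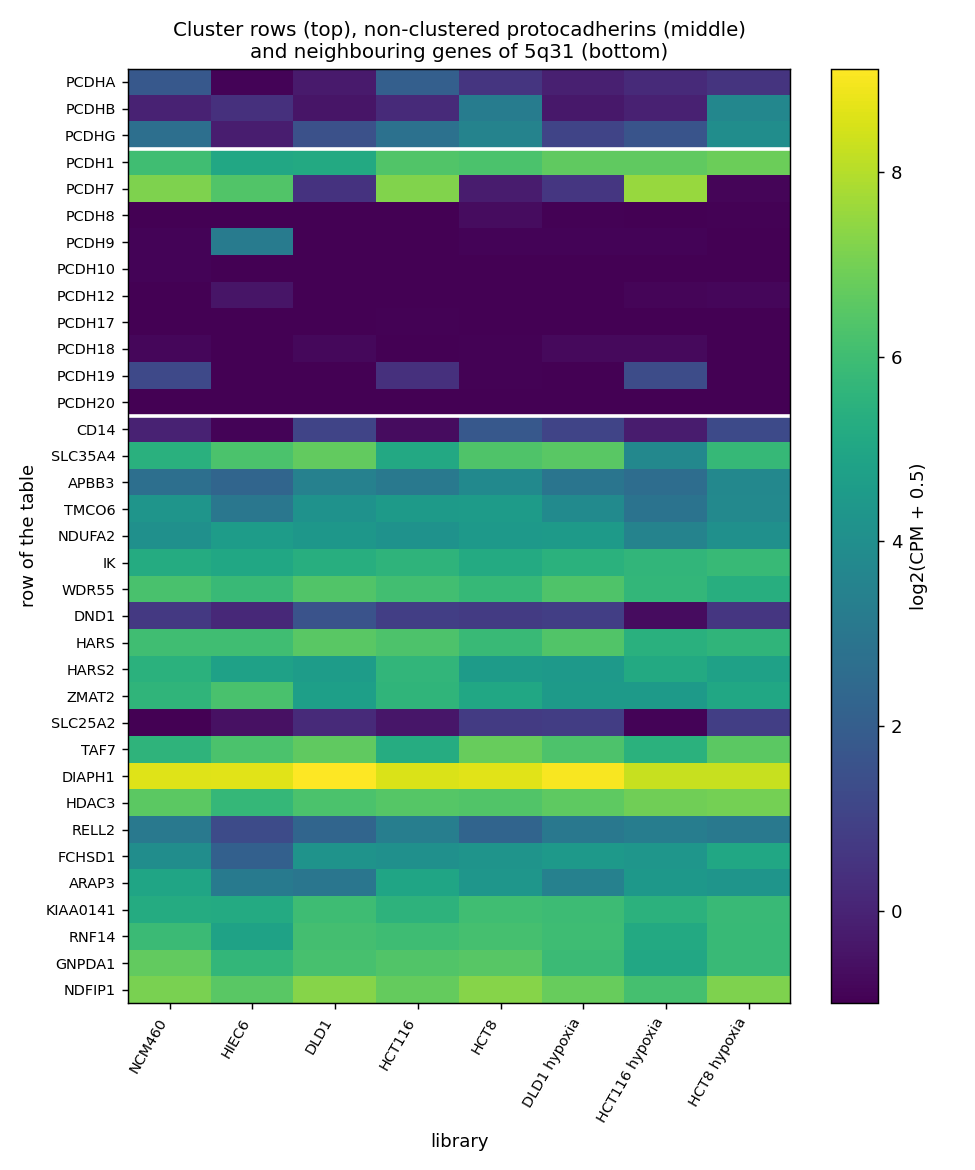
log2(CPM + 0.5) by colour in the 8 libraries (columns) for the 3 cluster rows, the 10 non-clustered protocadherins and the neighbouring genes of 5q31 (rows, parted by white lines). PCDHA and PCDHG were lowest in HIEC6, and PCDH9 was above 3 counts in HIEC6 alone. Of the 24 listed genes of 5q31, 19 were lower in HIEC6 than the mean of the other untreated lines. The 5 higher ones included TAF7 (75.1 CPM), between the beta and gamma clusters.

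Genes known to act on the clusters were read next, and each of them was above 3 counts in HIEC6. The 11 genes of CTCF and cohesin, which shape the loops between protocadherin promoters and their enhancers, summed to 1670 CPM in HIEC6 and 1242 to 1737 CPM in the other libraries, and 0 of 11 passed in either comparison by edgeR or DESeq2. NIPBL, the cohesin loader, had 193 CPM in HIEC6 and 58.6 to 98.4 CPM in the other untreated lines, and SMC1A, a cohesin subunit, had 306 and 125 to 230 CPM. Of the 13 genes of DNA methylation and silencing, 0 passed by edgeR or DESeq2 without the block. With the block 1 passed by edgeR, TET1, which oxidizes methylated cytosine (log2 fold change 1.43, SE 0.23, edgeR adjusted p = 0.0375). TET1 went from 1.19 to 4.22 CPM in DLD1, from 23.6 to 44.7 CPM in HCT116 and from 7.75 to 17.7 CPM in HCT8. SMCHD1, a repressor of the clusters, had 87.7 CPM in HIEC6 and 136 to 162 CPM in the other untreated lines, and the corepressor TRIM28 had 585 and 803 to 962 CPM.

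The proteases that cleave protocadherins and the partners inside the cell were read as well. All 7 proteolysis genes of the list were tested and 0 passed by edgeR or DESeq2. ADAM10, a protease that sheds the extracellular part of cadherins, had 125 CPM in HIEC6 and 134 to 189 CPM in the other untreated lines. All 16 partner genes were tested by edgeR and 0 passed by either tool. Of them CYFIP2, a subunit of the WAVE complex that alpha and gamma protocadherins can bind, had 0.41 CPM in HIEC6 and 79.8 to 147 CPM in the other untreated lines. The receptor kinase RET was at 0 counts in HIEC6 and had 15.7 CPM in NCM460, 15.2 in HCT116, 0.02 in DLD1 and 0.04 in HCT8. DESeq2 gave RET no p for CRC against normal. The 8 neural markers, genes of the cells in which the family is best known, summed to 157 CPM in NCM460, 123 in HCT116, 96.0 in DLD1, 27.8 in HIEC6 and 12.4 in HCT8. TUBB3 alone made up 143 CPM of the sum in NCM460, 109 in HCT116, 78.6 in DLD1, 22.8 in HIEC6 and 6.04 in HCT8. STMN2 and ELAVL4 were at 0 in every library. The order of the sums, which is largely that of TUBB3, was not that of the cluster rows. The 6 endothelial and immune markers summed to 7.41 CPM in HIEC6 and 1.17 to 13.2 CPM elsewhere. Of these, the endothelial cadherin CDH5 had 306 counts in HIEC6 and at most 10 elsewhere, PECAM1 had 81 and at most 25, and VWF was highest in DLD1 under hypoxia (730 counts). Of the marker lists, 0 genes passed by edgeR without the block. DESeq2 called VIM (log2 fold change -7.97, DESeq2 adjusted p = 0.00127) and CDH5 (-9.95, DESeq2 adjusted p = 0.0141) lower in the CRC lines. It called VIL1 (9.87, DESeq2 adjusted p = 0.00304) higher in the CRC lines and KRT19 (1.60, DESeq2 adjusted p = 0.000311) higher under hypoxia. VIL1 had 13632 counts in HCT8 and 411 in DLD1 but 2 in HCT116, against 4 in NCM460 and 4 in HIEC6. With the block KRT19 (log2 fold change 1.56) and FN1 (2.80), a matrix protein, passed by edgeR under hypoxia (edgeR adjusted p = 0.0115 and 0.0295).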

How the data were processed

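Total RNA of 8 libraries was sequenced after removal of ribosomal RNA. The authors deposited raw counts of reads per gene, with 0 columns left aside here. The methods name GRCh37.p13, whereas the submitters' processing notes name HISAT2 2.0.4 and GRCh38, and the counter, the gene annotation, the strand and the treatment of reads with several matches are not given in the sources used here, so that coordinates are those of GENCODE release 44 on GRCh37 and not of the deposited table. The extraction note of the labels names a brain tissue, while all other labels name the cell lines.

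Fits covered every gene with 10 or more counts in 2 or more libraries and used edgeR 4.0.16 (glmQLFit, glmQLFTest, TMM, Benjamini-Hochberg adjustment, threshold 0.05) in R 4.3.3. The SE is the fold change over the root of the F statistic. Alternatives were DESeq2 1.42.0, upper-quartile scaling, other filters, the replicate block and each library left out. The number in the labels is the cell line in the hypoxia comparison, where deviations of same-line libraries correlated at 0.865 to 0.873 and those of different lines at -0.62 to -0.098. Intervals are exact (SciPy 1.17.1). On simulated counts with a log2 change of 2 in 200 genes the CRC fit (20061 and 20091 genes) recovered 99% at a coefficient of variation of 0.2 and 0% at 0.8, and the measured value was 0.868.

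The members and gene lists were chosen with earlier results of these data known. Named members were to be the 3 highest and the 2 lowest of each subfamily, all C-type genes and those with counts in several libraries; as all single genes tied at 0, the cluster rows took their place. Named list genes are TAF7, SLC25A2, the 2 of each list with the largest difference of HIEC6 and those past the threshold. PCDH1, PCDH12, PCDH19, CDH13, CDH17, other markers and the rows UGT1A and IGL were added after their values were seen. An item that this rule would name is not reported here.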

Additional observations from a re-analysis of the deposited data

Results flagged for a closer look

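PCDHG moved in opposite directions under hypoxia in different lines, with counting intervals on both sides of 0. The log2 ratio of hypoxia to untreated was 0.42 in HCT8 (interval 0.26 to 0.58), -0.54 in DLD1 (-0.94 to -0.13) and -1.29 in HCT116 (-1.58 to -1.003). After TMM scaling the ratios were 0.40, -0.53 and -0.95, so that the directions did not depend on the library size used. With 1 library per line and condition the difference between lines was not tested. Under hypoxia DLD1 and HCT116 carry a second run label and HCT8 does not, and the part of the run in this difference was not tested.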

How the results depend on the processing

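The number of cluster rows past the threshold was 0 of 3 in every fit of either comparison: DESeq2, upper-quartile scaling, both other filters, the replicate block and each library left out. Over all genes DESeq2 called 143 in the CRC comparison and 55 under hypoxia, and the replicate block called 200 under hypoxia. DESeq2 gave PCDHB no p under hypoxia. The number of rows called higher in HIEC6 was 0 at folds of 2 and 10, after TMM scaling, with counts under 10 set to 10 and without each other library.

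Directions of the fitted log2 fold changes depended on single lines. In the CRC comparison the values without 1 library ran from -1.37 to 5.25 for PCDHA and from -0.71 to 2.58 for PCDHB, and the replicate block, which joins different lines there, gave -0.83 for PCDHB. Under hypoxia they ran from -1.69 to 0.27 for PCDHA, from -2.79 to 3.15 for PCDHB and from -1.32 to 0.49 for PCDHG. The PCDHG value, near 0, turned to 0.00041 with DESeq2 and to 0.046 with upper-quartile scaling. The call of the lowest other library at 4 times HIEC6 or more, an alternative chosen after seeing the data, fell from 2 rows to 1 after TMM scaling (PCDHG lost, 3.69-fold) and to 1 with counts under 10 set to 10 (PCDHA lost, 1.88-fold). That of PCDHB in HCT8 stayed at 1. Of the 24 levels, 5 moved beyond their Poisson interval after TMM scaling, 4 of them in HCT8. Sums without the largest member were not run, because single members were at 0. The 2 counts of PCDHA in HIEC6 limit every ratio to it.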
